A study of Mus musculus with 2 samples.

Results

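The unfolded protein response and the integrated stress response were examined through 34 genes in the eye cups of wild-type mice and of mice labelled Mfsd2a KO, at postnatal day 13. The members were chosen by gene symbol, from the pathway, and each was read by the brightest of the probe sets that carry its symbol alone. They are 34 of the 18193 genes that the arrays read in this way, and 33 of them were measured. A gene counted as measured when its value reached the median of all probe sets on at least 1 array, a floor of 94.2 for wild type and 93.4 for the other array. They fall into 14 chaperones and folding factors of the endoplasmic reticulum, 6 factors of endoplasmic reticulum-associated degradation, 4 genes of the sensors and Xbp1, and 10 genes of ATF4, its partners and its targets.

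Mfsd2a encodes a transporter that carries lysophosphatidylcholine with docosahexaenoic acid into brain and eye. Eye cups consist of retina, pigment epithelium, choroid and sclera, and here the front of the eye and the optic nerve had been dissected away. Each genotype is represented by 1 Affymetrix array (Mouse 430 2.0 design), on which total RNA pooled from 6 animals was hybridised. The part of Mfsd2a that is deleted, the strain and the sex of the animals are not given in the sources used here. No difference below has a replicate check or a p-value. Mfsd2a itself read 181 in the wild-type pool and 244 in the knockout-labelled one, 1.35-fold higher and against the direction that a knockout label gives. A probe set outside the deleted part would check nothing, so that pool is referred to as the array labelled knockout. In pooled tissue, fewer cells of a type and less RNA per cell cannot be told apart.

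The endoplasmic reticulum folds membrane and secreted proteins, which rod photoreceptors make in bulk to renew their outer segments. When unfolded proteins gather there, the membrane sensors IRE1, ATF6 and PERK start the unfolded protein response. IRE1 splices Xbp1 mRNA, ATF6 is cut to a transcription factor, and PERK phosphorylates the translation factor eIF2, which slows protein synthesis while favouring translation of Atf4 mRNA. Other eIF2 kinases lead to ATF4 as well, and this wider route is the integrated stress response. Splicing, cleavage, phosphorylation and translation are not read by these arrays, which measure mRNA level near the 3′ end of transcripts.

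Promoter sequences are printed here to show the letters through which the factors of the pathway are known to act, and which members hold them. ATF6 and XBP1 act through the endoplasmic reticulum stress element, searched as CCAAT and CCACG with any 9 bases between them. RefSeq promoter sequences of build GRCm38.p6, from 250 bases before to 50 bases after the start of each transcript, were found for 30 of the 34 members. On either strand, 9 of these 30 (30.0%) held the element, against 39 of 32851 promoters of the same length in the table, or 0.119%. The 39 include promoters of members, and they count windows, whereas members are counted as genes. The elements searched here and below were chosen as known ones of this pathway, so these shares are no test. A match describes the letters in the window and not a bound site. The elements of the 8 measured members are given in the direction in which the element reads, with its fixed bases in capitals, and Hsp90b1 has 2 of them.
Hspa5: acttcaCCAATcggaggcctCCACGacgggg (chr2:34772019-34772049, + strand)
Hsp90b1, far element: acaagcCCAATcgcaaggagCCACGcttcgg (chr10:86705632-86705662, - strand)
Hsp90b1, near element: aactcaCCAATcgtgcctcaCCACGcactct (chr10:86705527-86705557, + strand)
Calr: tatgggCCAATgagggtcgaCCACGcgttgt (chr8:84847069-84847099, + strand)
Canx: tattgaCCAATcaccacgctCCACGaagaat (chr11:50325794-50325824, - strand)
Pdia6: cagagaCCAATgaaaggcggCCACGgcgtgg (chr12:17266485-17266515, + strand)
Dnajc3: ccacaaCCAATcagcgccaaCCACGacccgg (chr14:118937821-118937851, + strand)
Creld2: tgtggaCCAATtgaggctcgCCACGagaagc (chr15:88819514-88819544, - strand)
Syvn1: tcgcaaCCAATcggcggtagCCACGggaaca (chr19:6046526-6046556, + strand)
In Calr, Creld2 and the near element of Hsp90b1 the element runs opposite to the gene. The member that was not measured, Derl3, held the element as well.

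A longer stretch shows the element of Hspa5 in its place. It covers the bases -180 to -31, where -1 is the last base before the transcript start, with CCAAT and CCACG in capitals (either strand was searched).
Hspa5: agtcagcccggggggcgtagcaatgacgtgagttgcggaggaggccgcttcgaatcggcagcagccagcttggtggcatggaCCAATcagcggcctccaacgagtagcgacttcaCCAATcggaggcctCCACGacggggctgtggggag (chr2:34771910-34772059, + strand)
The stretch holds 2 copies of CCAAT and 1 of CCACG, and the copy of CCAAT nearer to the start forms the element with it. Only exact matches were searched, so copies of the element with a changed base are not counted, here or in the other promoters.

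The shorter second form of the element, searched as ATTGG and CCACG with any 1 base between them, was in the promoters of Herpud1 and Dnajb11, 2 of 30 members (6.67%), against 0.0365% of all promoters. The element through which ATF4 and its C/EBP partners act, searched as TGATGNAA on both strands, was in 4 of 30 members (13.3%), namely Asns, Chac1, Trib3 and Herpud1. It was in 3.97% of all promoters. In Herpud1 the 2 kinds of element lie in the same promoter, and no search pattern overlapped another there. Fixed bases are in capitals.
Herpud1, second form: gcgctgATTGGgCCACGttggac (chr8:94386371-94386393, + strand)
Herpud1, ATF4 element: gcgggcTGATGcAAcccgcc (chr8:94386311-94386330, - strand)
Asns: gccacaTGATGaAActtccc (chr6:7693219-7693238, - strand)
Chac1: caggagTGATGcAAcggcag (chr2:119351043-119351062, - strand)

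Defining markers of retina and pigment epithelium were above the floor. Sag, rod arrestin, read 18137 in wild type and 18569 on the array labelled knockout. Rpe65, the retinoid isomerase of the pigment epithelium, read 3484 and 3301. The intensities have an arbitrary linear scale, and levels of different genes are not compared. Each difference below is the log2 value on the array labelled knockout minus that in wild type.

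No measured member differed by 1.2-fold in either direction. Of all 11568 measured genes, 1.79% were at least 1.2-fold higher on the array labelled knockout and 1.17% at least 1.2-fold lower, 2.96% in all. The 33 members ran from -0.18 (Atf5) to 0.15 (Ppp1r15a), with a median of 0, beside a median of 0.014 over all measured genes. Above 0 lay 14 members, below 0 lay 16, and 3 read the same value on both arrays. Among all measured genes 55.8% were above 0 and 42.4% below.

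**Figure D1:**
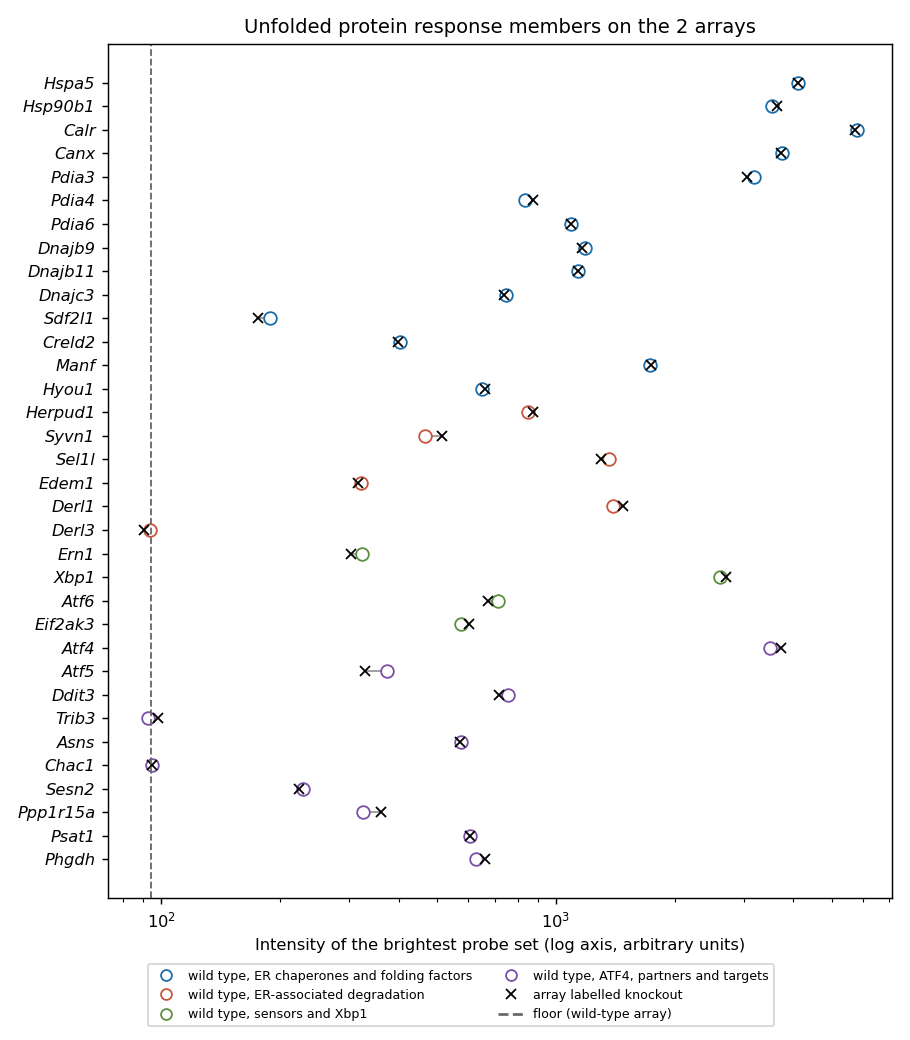
Intensity of each member's brightest probe set on the wild-type array (open circles, coloured by role) and on the array labelled knockout (crosses), on a log axis, with the floor of the wild-type array as a dashed line. The marks of each gene lie almost on each other. Derl3 is under the floor on both arrays, and Trib3 on the wild-type array only.

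Among the chaperones, Hspa5 encodes BiP, the central Hsp70 of the endoplasmic reticulum, which binds unfolded proteins and holds the sensors in check. It read 4103 in wild type and 4115 on the array labelled knockout, a difference of 0.0043. Its 3 probe sets, all above the floor, lay between 0.0043 and 0.066. Hsp90b1, the Hsp90 of the compartment, read 3542 and 3646 (0.042), and its other probe set differed by -0.034. Hyou1, which exchanges nucleotide on BiP, read 651 and 660 (0.021), while its second probe set above the floor differed by -0.083. The BiP system was thus nearly level between the pools, with probe sets of a gene on either side of 0.

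Calr and Canx encode calreticulin and calnexin, the lectin chaperones of glycoproteins. Calr read 5792 in wild type and 5725 on the array labelled knockout (-0.017), and its 3 probe sets ran from -0.042 to -0.017. Canx read 3752 and 3731 (-0.0083), although its dimmer probe sets were higher, up to 0.15. Pdia3, the disulfide isomerase that works with both lectins, read 3184 and 3058 (-0.058). Its other probe set differed by 0.032. These genes were slightly lower by their brightest sets, with sets of both signs in Canx and Pdia3. Further isomerase genes were Pdia4, at 835 and 876 (0.068), and Pdia6, at 1093 and 1092 (-0.0013).

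The J-domain partners of BiP pass clients to it. Dnajb9 read 1188 in wild type and 1168 on the array labelled knockout (-0.024). Dnajb11 read 1138 on both arrays. Dnajc3, whose product is also an inhibitor of the PERK branch, read 749 and 740 (-0.016). The probe sets of Dnajc3 disagreed most among the members: 4 were above the floor, and they ran from -0.039 to 0.25.

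Sdf2l1, a partner of Dnajb11, read 189 in wild type and 176 on the array labelled knockout. Its difference of -0.10 was the largest of the chaperone group, and it has 1 probe set. Creld2, a folding factor induced by endoplasmic reticulum stress, read 403 and 399 (-0.014). Manf, a protein of the compartment that is also secreted and protects neurons, read 1729 and 1741 (0.0098). In all, 5 of the 14 chaperones were above 0, 8 below and 1 equal, with a median of -0.0048. Of the 14, 13 lay within 0.1 of 0.

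In endoplasmic reticulum-associated degradation, misfolded proteins are drawn back to the cytosol and destroyed by the proteasome. Syvn1 encodes HRD1, the ubiquitin ligase at its centre. It read 467 in wild type and 515 on the array labelled knockout, a difference of 0.14 and a level 10.3% higher, and its other probe set differed by 0.072. Sel1l, the adaptor of the ligase, read 1361 and 1301 (-0.065), but its 5 probe sets, all above the floor, ran from -0.065 to 0.16. Herpud1, a scaffold of the same complex, read 852 and 878 (0.044), and its other probe set differed by -0.073. Within the ligase complex, only for Syvn1 did all probe sets above the floor lie on the same side of 0.

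Derl1, a membrane protein of the exit channel, read 1397 in wild type and 1483 on the array labelled knockout (0.086). Its 4 probe sets ran from -0.0084 to 0.21. Edem1, which directs glycoproteins to degradation, read 321 and 315 (-0.027), with both probe sets below 0. Derl3, a relative of Derl1, was the member just outside the floor, at 93.7 and 90.4. The 5 measured members had a median of 0.044, with 3 above 0 and 2 below.

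Of the sensors, Ern1, which encodes IRE1, read 323 in wild type and 303 on the array labelled knockout (-0.091), with 1 of its 5 probe sets above the floor. Xbp1, whose mRNA is the substrate of IRE1, read 2603 and 2706 (0.056), and its 4 probe sets ran from -0.12 to 0.081. These sets do not report the splicing of Xbp1. Atf6 read 714 and 675 (-0.081), while its dimmer probe sets above the floor reached 0.16. Eif2ak3, which encodes PERK, read 574 and 602 (0.069), with 1 of 3 probe sets above the floor. Both signs were seen among the sensor genes, and all 4 lay within 0.1 of 0 by their brightest sets.

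In the ATF4 arm, Atf4 itself read 3486 in wild type and 3721 on the array labelled knockout, a difference of 0.094. Its second probe set above the floor differed by 0.12. Atf5, a related factor of mitochondrial and cytosolic stress, had the largest absolute difference of all members. It read 373 and 329 in its 1 probe set (-0.18), and 8.79% of measured genes differed by more in either direction. Ddit3, which encodes CHOP, a factor that favours cell death in lasting stress, read 758 and 718 (-0.078), and its dimmer probe set differed by 0.060.

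Ppp1r15a encodes the phosphatase subunit GADD34, which reverses eIF2 phosphorylation. It read 325 in wild type and 360 on the array labelled knockout. Its 1 probe set gave the highest difference of the members, 0.15. Of all measured genes 14.0% differed by more in either direction. Trib3, a pseudokinase that restrains ATF4 and CHOP, read 92.5 and 98.0 (0.084). It was the 1 member that passed the floor through the array labelled knockout alone. Sesn2, a leucine sensor of the mTORC1 pathway, read 229 and 223 (-0.039), and its other probe set differed by 0.15. Chac1, an enzyme that breaks down glutathione, read 94.7 on both arrays, just above the floor.

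The enzymes of amino acid supply completed this arm. Asns, asparagine synthetase, read 577 in wild type and 571 on the array labelled knockout (-0.015). Psat1, the aminotransferase of serine synthesis, read 607 on both arrays. Phgdh, the first enzyme of that route, read 628 and 661 (0.074), and its 4 probe sets all lay between 0.072 and 0.12. A further probe set that it shares with Gm8096 differed by 0.22 and one shared with Gm6756 by 0.083, so reads of near-identical copies may be mixed. Over the 10 genes of the ATF4 arm the median was 0, with 4 above, 4 below and 2 equal.

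**Figure D2:**
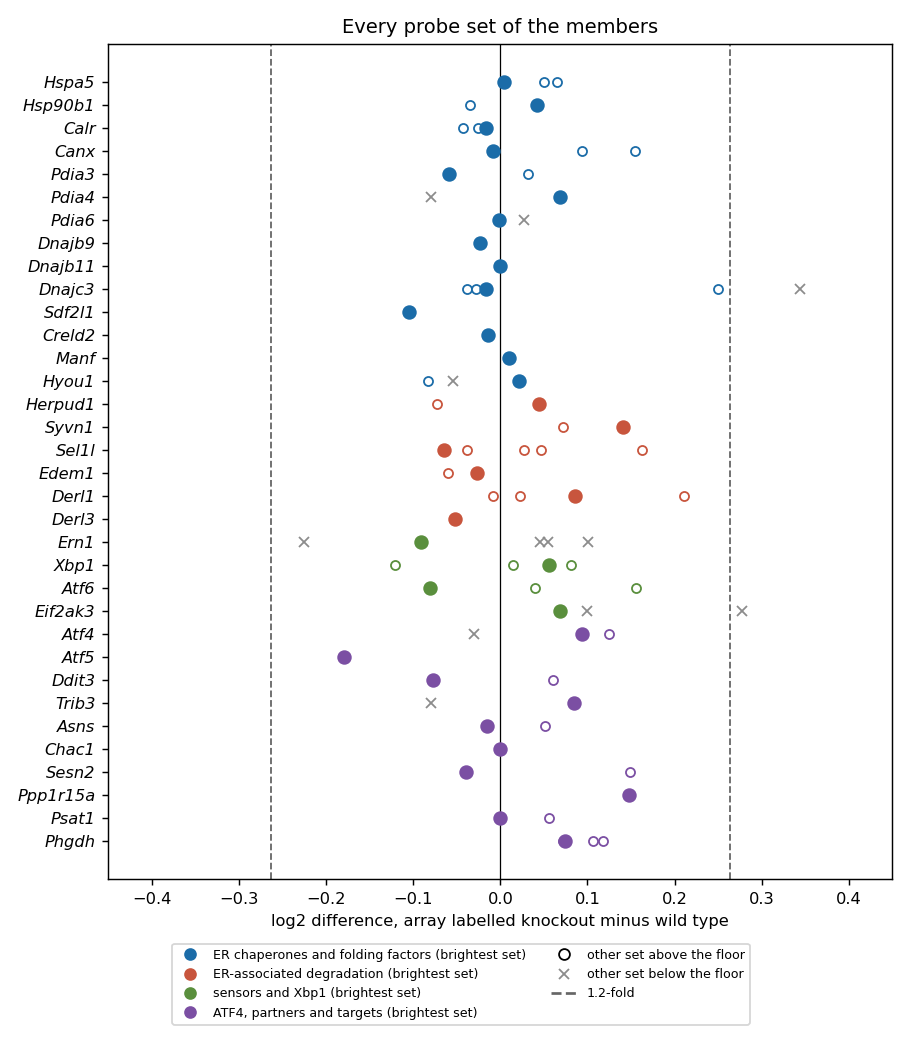
The log2 difference of every probe set of each member: filled circles are the brightest set, open circles other sets above the floor and grey crosses sets below it, with dashed lines at 1.2-fold. No set above the floor reaches the lines, and the crosses of Dnajc3 and Eif2ak3 lie beyond the upper line.

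The probe sets of a gene give the only spread that can be read from these data. Over 5201 genes with several probe sets above the floor, the log2 differences within a gene had an SD of 0.089. That is a spread between probe sets on the same 2 arrays. It is not one between animals or between repeated arrays, and it gives no error for the difference between the pools. Of the 33 measured members, 29 lay within 0.1 of 0. The members have 81 probe sets, of which 68 were above the floor, and none of the 68 reached 1.2-fold. Over all genes 371 of 20105 probe sets above the floor were at least 1.2-fold higher and 232 lower. Of 20 members with several sets above the floor, 13 had sets of both signs, and the share over all genes is not given here. For these 13 the direction depends on the probe set that is read. The other 7, with no set above the floor on the opposite side of 0, were Hspa5, Calr, Syvn1, Edem1, Atf4, Psat1 and Phgdh. Below the floor, a further set of Atf4 differed by -0.030.

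The spread of the members was set beside that of all genes. Within 0.1 of 0 lay 87.9% of the measured members and 71.3% of all measured genes. When the floor was raised to the 70th percentile, the shares were 89.7% of 29 members and 76.0% of 8141 genes. At that floor 0 of 29 members and 1.93% of the genes reached 1.2-fold, and 3 of 29 and 12.3% reached 1.1-fold. The median absolute difference was 0.044 for the members and 0.060 for all measured genes. At the smaller size of 1.1-fold, 2 members were higher (Syvn1 and Ppp1r15a) and 1 was lower (Atf5), or 3 of 33, against 9.83% of all measured genes higher and 6.6% lower. These are descriptions of 2 pools, and no test was made of whether the members differ less than other genes.

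**Figure D3:**
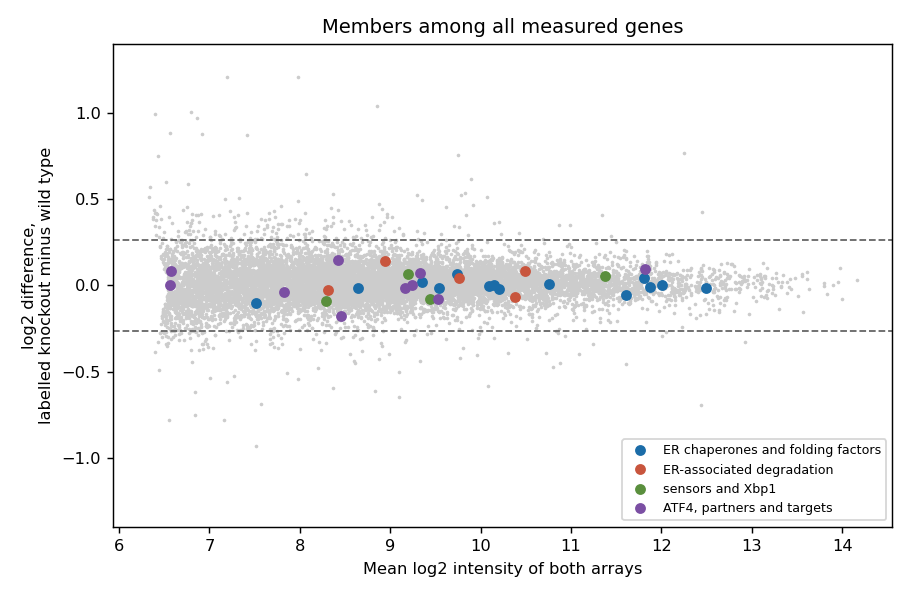
The log2 difference of each measured gene (grey) against its mean log2 intensity, with the 33 measured members coloured by role and dashed lines at 1.2-fold. The members lie in the dense band around 0, between -0.18 and 0.15.

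The promoter classes were compared by their values. The 8 measured members with the endoplasmic reticulum stress element had a median of -0.0048 and ran from -0.017 to 0.14, the upper end being Syvn1. The 21 measured members with a promoter sequence and without this element had a median of 0 and ran from -0.18 to 0.15. The element was also in the promoters of 6 measured genes that are not members (Adcy3, Alg12, Ero1b, Pan2, Spats2l and Tdrd9), which ran from -0.047 to 0.14. The 4 members with the ATF4 element ran from -0.015 (Asns) to 0.084 (Trib3), with a median of 0.022. Trib3 passed the floor only through the array on which it was higher, and without it the highest was Herpud1 (0.044) and the median 0. No member in these sets reached 1.2-fold, nor did the 6 other genes with the stress element. The ATF4 element was in the promoters of 244 further measured genes, which ran from -0.45 to 0.41. Of these 6 were at least 1.2-fold higher and 8 lower, or 5.74% in all, against 2.96% of all measured genes.

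The wider pathway was read through 12 further lists. Of 141 genes listed, 123 were measured, with a median of 0.0077. At least 1.2-fold higher were 3 and lower was 1, or 4 of 123 against 2.96% of all measured genes. The share is near the background. The lower gene was Pdia5, a disulfide isomerase, at 877 in wild type and 708 on the array labelled knockout (-0.31), from 1 probe set. It stood among 15 measured folding enzymes of the lumen, with a median of 0.0034, 8 above 0 and 6 below. P4hb (0.043), Txndc5 (0.097), Erp44 (-0.011) and Pdia5 came first in that list.

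The higher genes were Aldh18a1, Slc1a4 and Stt3a. Aldh18a1, the first enzyme of proline synthesis and a target of ATF4, read 357 in wild type and 447 on the array labelled knockout (0.32), while its other 3 probe sets above the floor lay between 0.10 and 0.11. Slc1a4, a carrier of alanine and serine, read 105 and 131 (0.31), near the floor. Its other probe sets, as dim, differed by 0.28, also past 1.2-fold, and by 0.051. Stt3a, a catalytic subunit of the enzyme that attaches sugar chains to nascent proteins, read 595 and 734 (0.30), but its other probe set above the floor differed by 0.012. In Aldh18a1 and Stt3a the brightest set alone passed 1.2-fold, and for each of these genes the size depends on the probe set read.

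Among degradation factors that are not members, 10 of 16 measured genes were above 0, with a median of 0.026. The first were Derl2 (-0.023), Os9 (0.035), Erlec1 (-0.0057) and Edem2 (-0.14). In the calnexin cycle and the oligosaccharyltransferase 8 of 11 were above 0, with a median of 0.032. Uggt1, the folding sensor of glycoproteins, differed by -0.072, and the glucosidase genes Mogs, Ganab and Prkcsh by 0.16, 0.15 and 0.059. The translocon and signal peptide list had 7 of 13 above 0, with a median of 0.015. Its first members were Sec61a1 (0.13), Sec61b (0.035), Sec62 (-0.012) and Sec63 (-0.033).

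The site-1 and site-2 proteases, encoded by Mbtps1 and Mbtps2, cut ATF6 and also the SREBP factors that drive lipid synthesis. Mbtps1 differed by 0.12 and Mbtps2 by 0.15, Atf6b by -0.028 and Creb3 by 0.0014. The list of ATF6 processing and the CREB3 family had a median of 0.0032 over 8 genes. For comparison, 5 of 7 measured genes of sterol and fatty acid synthesis were higher by 1.2-fold or more, and the list had a median of 0.52, Srebf1 at 661 and 1117 (0.76) and Insig1 at 525 and 754 (0.52). In the same list Srebf2 differed by 0.084, but its other probe set, also above the floor, differed by 0.51. Scap, which escorts the SREBP factors to the proteases, differed by 0.047 in the 1 of its 2 probe sets above the floor. The mean over the 2 sets of Scap was -0.061, of the opposite sign.

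Upstream of ATF4, the kinases, phosphatase and eIF2B subunits had 5 of 10 measured genes above 0 and a median of 0.00049. Eif2ak1 differed by -0.10, Eif2ak2 by -0.12, Eif2ak4 by 0.10 and Ppp1r15b by -0.057. Eif2ak2 encodes PKR, the double-stranded RNA kinase that interferon induces. It read 115 in wild type and 106 on the array labelled knockout, a difference of -0.12, from the 1 of its 3 probe sets above the floor. The mean over all 3 was 0.056, of the opposite sign. In the interferon response list Irf7 (0.41), Rtp4 (0.43) and Ifit3 (0.26), the genes above the floor on both arrays, were higher. Usp18 and Oasl2 passed the floor only through the array on which they were higher.

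Downstream of ATF4, partners and other targets had 3 of 9 measured genes above 0 and a median of -0.060. Cebpb differed by 0.11, Cebpg by -0.086, Nupr1 by -0.067 and Ddit4 by -0.14. Serine and one-carbon enzymes had 4 of 7 above 0, with Psph at 0.040, Shmt2 at 0.23, Shmt1 at -0.081 and Mthfd2 at -0.046. The other probe set of Mthfd2, also above the floor, differed by 0.28, of the opposite sign and past 1.2-fold. The sets of Shmt2 above the floor ran from 0.065 to 0.23. Among amino acid transporters 3 of 6 were above 0, with Slc7a5 at 0.061, Slc3a2 at -0.053, Slc7a1 at -0.017 and Slc38a2 at 0.23. The other set of Slc38a2 above the floor differed by 0.036. Cytosolic transfer RNA synthetases, many of which ATF4 controls, had 9 of 12 above 0 and a median of 0.081, none past 1.2-fold. Their first members were Aars (0.060), Cars (0.096), Eprs (0.099) and Gars (0.075).

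**Figure D4:**
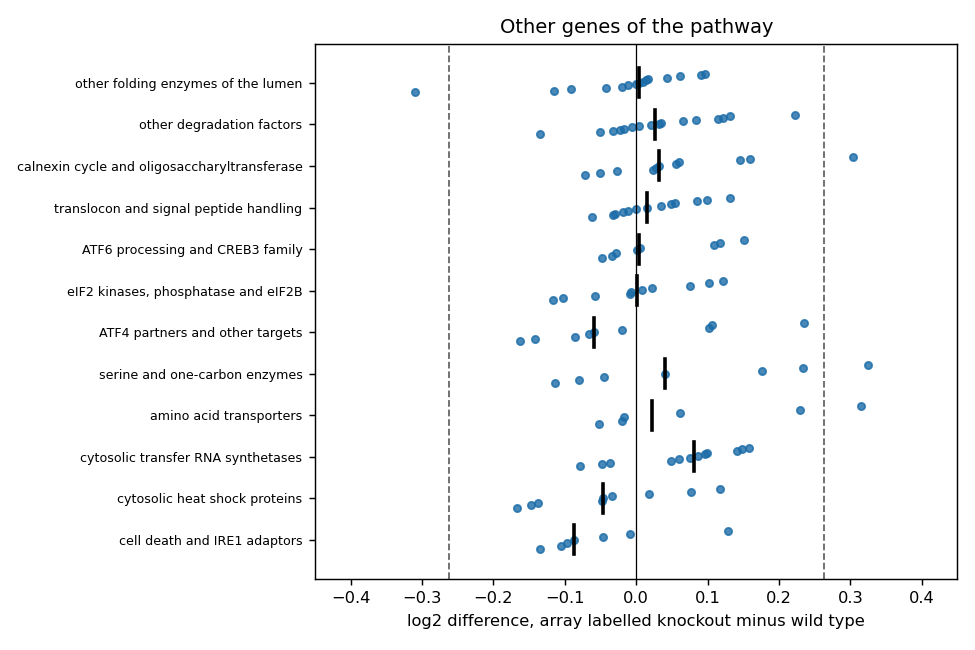
The log2 difference of each measured gene in 12 further lists (points), with the median of each list as a black bar and dashed lines at 1.2-fold. Medians lie between -0.087 and 0.081, and 4 points lie beyond the lines.

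Several marker lists of cells and tissues differed by more than any list of members. Over 5 measured cornea and conjunctiva genes the summed intensity was 1031 in wild type and 785 on the array labelled knockout, with 5 of 5 below 0. Aldh3a1 (-0.62) passed the floor only through the wild-type array, where it was higher, and the sums without it were 889 and 692, with 4 of 4 below 0. For 6 lens genes they were 1769 and 2032, with 5 of 6 above 0, and Bfsp2, the 1 below, passed only through the wild-type array. For 7 ganglion cell genes the sums were 15249 and 13271, with 7 of 7 below 0, and for 5 microglia genes 2056 and 2377, with 5 of 5 above 0. Csf1r (0.024) made up 1120 and 1139 of the microglia sums, and the median of that list was 0.39. For 6 skeletal muscle genes the sums were 2975 and 2723, with 4 of 6 below 0. Rod genes summed to 72853 and 71833 over 5 genes, with 3 of 5 below 0, and those of Mueller glia to 24746 and 24522 over 5, with 3 of 5 below 0. Pigment epithelium genes summed to 31615 and 30350, of which Ttr made up 15804 and 16010. Of these 5 genes 4 were below 0, with Lrat at -0.31 and Rgr at -0.30. Of 7 markers of plasma cells, which are rich in these chaperones, 3 were measured and summed to 788 and 954, with 2 of 3 above 0. Prdm1 made up 433 and 579 of these sums, and Sdc1 differed by -0.21. Mzb1, Irf4, Cd79a and Tnfrsf17 were below the floor. No listed marker read 0. The part of these cell types in the members' values was not tested. Because each genotype is 1 pool, its effect cannot be told apart from those of dissection or of array processing.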

How the data were processed

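Total RNA of 2 pools of eye cups, 1 per genotype, was read on 1 array each. The deposited values are intensities on a linear scale, and Partek 6.6 and RMA are named per the submitters' processing notes, while their settings are not given in the sources used here. RMA equalises the arrays, so an overall difference between pools is removed. Of 45101 probe sets 34958 carried 1 gene symbol, 932 several and 9211 none. An Entrez identifier of the RefSeq table (GRCm38.p6) matched 34754 of them, and 0 symbols changed. The brightest probe set by the mean of both arrays gave each gene's value, and base 2 logarithms were subtracted. A floor at the median left 11568 genes. With 1 array per genotype no test was made, and the number of arrays limits the precision. Genes were counted by a size of 1.2-fold.

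All members are named. Of the other lists, genes past 1.2-fold and the first 4 measured are named, and examples are given of the markers. The members and lists were chosen with earlier results of these data known. Promoters were searched on both strands. The alternatives tried were a size of 1.5-fold or 1.1-fold, no floor or one set at the 70th percentile, the mean of probe sets, leaving out sets ending in _s_at or _x_at, removal of a loess trend (span 0.3, 3 iterations) and centring on the median. Scripts used statsmodels 0.14.6, pandas 2.3.3 and numpy 2.4.6 under Python 3.11.15 and were tested on simulated data.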

Additional observations from a re-analysis of the deposited data

Results flagged for a closer look

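In data outside the comparison, 2 dim probe sets of members were higher on the array labelled knockout by more than 1.2-fold, while the brightest set of the same gene was not. The dimmest of the 5 sets of Dnajc3 read 50.3 in wild type and 63.9 on the other array, a log2 difference of 0.34. The second of the 3 sets of Eif2ak3 read 34.6 and 41.9, a difference of 0.28. Both lay below the floor on both arrays, and they are 2 of the 81 probe sets of the members. Without a floor 5.61% of all genes were past 1.2-fold in either direction, against 2.96% with it.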

How the results depend on the processing

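No paired analysis was possible because there is 1 array per genotype. The count of 0 members past 1.2-fold in either direction could not rise at 1.5-fold or with the higher floor (70th percentile). It was also 0 with no floor, which only added Derl3 (-0.052) to the members, while 5.61% of all genes were past 1.2-fold. Fewer members were measured in the next alternatives. With the mean of probe sets the count was 0 of 30 members, beside 2.43% of genes. Without _s_at and _x_at sets it was 0 of 31, beside 2.95%. With the loess trend removed the count was 0, beside 2.97%. With centring it was 0, beside 3.02%, but that shift is too small to bring any member to 1.2-fold. In an alternative chosen after seeing the data, the probe set with the largest difference above the floor stood for each gene. There the count could only be 0, as no member set above the floor reached 1.2-fold, while 4.61% of genes did. At 1.1-fold 2 members were higher and 1 was lower. The median of all members ran from -0.016 to 0.042 over these alternatives, so its sign is not fixed. The medians ran from -0.019 to -0.00066 for the chaperones, from -0.034 to 0.023 for the sensors and from -0.014 to 0.070 for the ATF4 arm. The upper value for the sensors came from the mean of probe sets, where Ern1 and Eif2ak3 fell below the floor. It rests on Xbp1 and Atf6 alone. For the degradation factors it ran from 0.0086 to 0.14, the upper value with the largest probe set, which takes the extreme set by construction. A median was called moved where it shifted by more than the SD of probe sets of a gene, 0.089. Of 222 values of single members under the alternatives, 15 moved by more than that, all where another probe set or a mean of sets was read. Many of the 222 could not move so far. A change of floor leaves the value of a member as it was, and centring shifts every member by the same 0.014. Signal near the floor limits Chac1, Trib3 and Derl3.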

Other observations

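Cytosolic heat shock proteins, which answer unfolded proteins outside the endoplasmic reticulum, had 6 of 9 measured genes below 0 and a median of -0.047. Hspa8 differed by -0.033, Hspa1a by 0.076, Hspa1b by 0.12 and Hsp90aa1 by -0.047. The list of cell death genes and IRE1 adaptors had 6 of 7 measured genes below 0 and a median of -0.087, with none past 1.2-fold. Its first measured members were Traf2 (-0.0092), Map3k5 (-0.13), Bbc3 (0.13) and Bcl2l11 (-0.11). Of all measured genes 42.4% were below 0.

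Exactly equal values on both arrays were found for 3 members, Dnajb11, Chac1 and Psat1, and for 206 of the 11568 measured genes. Over all 45101 probe sets 2159 had equal values.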
